A study of Mus musculus with 27 samples.

Results

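The collagen chain genes of the mouse were followed in mixed glial cultures. They were taken as every protein-coding row of the deposited read count table whose symbol follows the pattern of a collagen chain, Col, a type number, a and a chain number, and 44 of the 54532 annotated genes met it. Of these, 11 encode fibrillar collagens, 8 encode collagens of basement membranes (the 6 type IV chains and the multiplexins Col15a1 and Col18a1) and 25 belong to other groups. The cultures were grown from the cortices of neonatal C57BL/6 mice, kept for 14 days in vitro and treated for 24 h, and polyadenylated RNA was sequenced without strand information. All 27 libraries therefore share strain, tissue and culture, and no allele or transgene was involved. The first experiment held 5 groups of 3 libraries: untreated cultures, cultures given 100 ng/mL lipopolysaccharide (LPS, a bacterial cell wall component that activates Toll-like receptor signalling), LPS with 50 nM bryostatin, LPS with 20 ng/mL interferon gamma (IFNγ), and LPS with IFNγ and bryostatin. The second experiment held 4 groups of 3 libraries: untreated cultures, 50 nM bryostatin alone, 20 ng/mL interleukin 4 (IL-4), and IL-4 with bryostatin. Bryostatin is a modulator of protein kinase C. Experiments were analysed apart, since each had its own untreated group. The labels number the libraries of a group but do not say whether they came from separate cultures, so p-values measure only the spread between libraries, which may be technical.

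Collagens are secreted or membrane-bound proteins in which chains wind around each other along repeats that carry glycine at regular steps. Fibrillar collagens (types I, II, III, V, XI, XXIV and XXVII) assemble into banded fibrils. Type IV chains form the sheet of basement membranes in set combinations: Col4a1 with Col4a2, Col4a3 with Col4a4 and Col4a5, and Col4a5 with Col4a6. The remaining types decorate fibrils (types IX, XII, XIV, XVI, XX and XXII), form beaded filaments (type VI), short-chain networks (types VIII and X) or anchoring fibrils (type VII), or span the membrane (types XIII, XVII, XXIII and XXV). In the brain most fibrillar collagen is made by cells of the meninges and vessel walls, and basement membranes lie around vessels and under the glial surface.

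Total counts per library ran from 17230058 to 28687281, at which 3 counts correspond to 0.105 to 0.174 counts per 1000000 (CPM) before any scaling. Levels per gene are given below as CPM scaled by trimmed mean of M-values (TMM) factors. In the groups given LPS and IFNγ these factors were 0.866 to 0.909, so there the scaled level of 3 counts is higher. Levels between genes are given only as the deposited FPKM, which divides by gene length. Values after ± are standard errors for log2 fold changes and standard deviations for levels. Libraries stood apart in ways that touch the collagens. The untreated library labelled replicate 1 of the first experiment had lower fibrillar collagen and higher Col8a1 than replicates 2 and 3 of its group, and the untreated library labelled replicate 1 of the second experiment showed the opposite. Col8a1, a short-chain network collagen, was at 660.5, 275 and 295 CPM in untreated replicates 1, 2 and 3 of the first experiment and at 235, 666 and 758 CPM in those of the second. Col11a2, a fibrillar chain, was at 7.08, 39.1 and 42.1 CPM and 46.5, 8.05 and 6.84 CPM in the same order. Of the 35 collagens tested in both experiments, 25 were nearer in the first untreated library of the first experiment, and 29 in that of the second, to the mean of replicates 2 and 3 of the other experiment than to that of their own (log2 of CPM + 1). The library labelled IL-4 replicate 1 also stood apart, with Col1a1, a chain of type I collagen, at 312, 1233 and 990.4 CPM in the 3 IL-4 libraries. Outside the collagens the oligodendrocyte lineage gene Sox10 was at 0.161, 33.4 and 30.1 CPM in untreated replicates 1, 2 and 3 of the first experiment and 39.1, 0.281 and 0.228 CPM in those of the second, and Pdgfra at 3.92, 135 and 154 CPM and 96.2, 5.4 and 5.41 CPM. In both genes each library labelled replicate 1 was thus nearer to replicates 2 and 3 of the other experiment than to those of its own. Whether these 2 libraries were exchanged cannot be told from the labels, so every comparison with untreated cultures rests on labels that these values go against, and untreated replicate 1 means the library so labelled throughout. Values without both are given where a call was gained or lost, where a called value moved by over 1.5 times, and for some members where the direction turned. Markers of microglia, astrocytes and mural cells were present in every group. The mural genes Abcc9 and Des did not exceed 0.399 and 3.27 CPM in any library, while Acta2 reached 1644.1 CPM. Endothelial Cldn5 was at or near 0, while Cdh5 of the same list ran from 11.7 to 31.7 CPM. The meningeal fibroblast genes Slc6a13, Slc22a6, Slc6a20a and Dpt did not exceed 0.33, 0.191, 0.247 and 0.483 CPM in any library. Dcn and Ogn of the fibroblast list reached 227 and 291 CPM. The endothelial list summed to 29.1 to 53.1 CPM over all libraries. With LPS, 0 genes of the oligodendrocyte precursor list were called higher and 2 lower of 9 tested, 1 and 1 of 6 for oligodendrocytes, 3 and 0 of 8 for neurons and 2 and 2 of 7 for endothelial cells. Over all genes tested, 19.5% were called higher and 18.8% lower with LPS. In such bulk samples fewer cells of a type and less RNA per cell cannot be told apart.

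Several collagen genes lie side by side, and the sequences at their starts are shown because partner chains are compared below. By the deposited coordinates (mm10) Col4a1 (chr8:11198423-11312826, minus strand) and Col4a2 (chr8:11312805-11449287, plus strand) run head to head and overlap by 22 bases, Col4a4 (chr1:82448423-82586849, minus strand) and Col4a3 (chr1:82586921-82722059, plus strand) run head to head 71 bases apart, and Col4a6 and Col4a5 run head to head on chromosome X, 1308 bases apart. Col3a1 and Col5a2 lie tail to tail with 24614 bases between them. The bases shared by Col4a1 and Col4a2 (chr8:11312805-11312826, plus strand) and those between Col4a4 and Col4a3 (chr1:82586850-82586920, minus strand) are given 5′ to 3′ from the RefSeq promoter table (GRCm38.p6):
Col4a1 and Col4a2: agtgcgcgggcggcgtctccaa
Col4a4 and Col4a3: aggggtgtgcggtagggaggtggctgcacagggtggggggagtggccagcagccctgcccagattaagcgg
The 250 bases before the start are shown for Col23a1, the member with the greatest rise with LPS (chr11:51289670-51289919), and for 3 of the chains called lower with bryostatin, Col11a2 (chr17:34038888-34039137), Col11a1 (chr3:114030290-114030539) and Col9a1 (chr1:24177360-24177609), all on the plus strand. The start is that of RefSeq. It is the deposited start for Col23a1, Col11a1 and Col9a1, while for Col11a2 299 bases lie between the end of the stretch and the deposited start. Capitals mark a TATAAA match in Col11a2 and a CCAAT match on the opposite strand, read ATTGG, in Col11a1.
Col23a1: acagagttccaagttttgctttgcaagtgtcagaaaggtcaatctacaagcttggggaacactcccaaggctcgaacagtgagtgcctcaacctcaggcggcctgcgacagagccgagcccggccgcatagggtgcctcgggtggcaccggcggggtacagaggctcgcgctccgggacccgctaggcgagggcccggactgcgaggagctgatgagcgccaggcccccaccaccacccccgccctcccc
Col11a2: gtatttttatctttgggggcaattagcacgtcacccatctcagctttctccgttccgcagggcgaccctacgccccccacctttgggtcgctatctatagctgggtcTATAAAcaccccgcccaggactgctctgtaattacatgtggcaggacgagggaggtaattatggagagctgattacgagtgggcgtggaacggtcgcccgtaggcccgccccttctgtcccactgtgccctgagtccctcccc
Col11a1: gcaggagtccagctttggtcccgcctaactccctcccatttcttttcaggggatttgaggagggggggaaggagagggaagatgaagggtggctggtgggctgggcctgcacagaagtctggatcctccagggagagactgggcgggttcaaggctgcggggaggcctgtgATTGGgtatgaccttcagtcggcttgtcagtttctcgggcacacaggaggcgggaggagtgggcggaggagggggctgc
Col9a1: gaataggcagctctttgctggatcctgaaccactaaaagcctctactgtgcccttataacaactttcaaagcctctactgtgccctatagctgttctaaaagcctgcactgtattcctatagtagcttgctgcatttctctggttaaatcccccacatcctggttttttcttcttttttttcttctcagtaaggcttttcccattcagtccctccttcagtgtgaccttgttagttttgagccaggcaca
The table held a window of 300 bases (250 before to 50 after the start) for 35 of the 44 collagens, 38 windows in all, and 32851 windows over all genes. Both strands were searched. TGANTCA, the AP-1 type motif, was found in 2.63% of the collagen windows (1 window, Col6a1) and 7.81% of all windows. TATAAA was found in 13.2% and 13.6%, and CCAAT in 34.2% and 37.4%. GGGNNTTCC, an NF-kB type motif, was found in 5.26% and 5.82%, and the looser GGGNNNTCC, which includes it, in 36.8% and 17.8%. The median GC content was 59.9% over the collagen windows and 52.7% over all windows. None of the 5 motifs was found in the shown stretches of Col23a1 and Col9a1. RefSeq gives Col9a1 another start, whose window (chr1:24194953-24195252) held a GGGNNNTCC and a CCAAT match.

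Collagen transcripts were abundant and dominated by a few chains. They made up 0.466% to 0.978% of all counts. Averaged over the 27 libraries, the highest members were Col1a1 at 147 FPKM, Col1a2 at 105.8 FPKM (the chains of type I collagen), Col4a1 at 93.1 FPKM, Col3a1 (type III) at 80.6 FPKM, Col5a2 (type V) at 64.0 FPKM and Col8a1 at 62.0 FPKM. These 6 genes carried 61.0% to 76.4% of the summed collagen FPKM of a library. Next came Col4a2 at 45.6 FPKM, Col4a5 at 38.1 FPKM, Col4a6 at 27.2 FPKM, Col5a1 at 23.7 FPKM, Col18a1 (the source of endostatin) at 20.7 FPKM and Col6a1 at 20.4 FPKM. The ratio of partner chains differed between pairs and libraries. The FPKM ratio of Col1a1 to Col1a2 ran from 1.14 to 1.65 over the libraries, that of Col4a1 to Col4a2 from 1.78 to 3.02, that of Col4a5 to Col4a6 from 0.84 to 2.11, and that of Col4a3 to Col4a4 from 0.12 to 0.92.

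The make-up by class differed between libraries. Fibrillar genes held 35.5% to 69.5% of the collagen FPKM, basement membrane genes 19.5% to 39.9% and other genes 9.7% to 26.2%. The fibrillar share was 39.7%, 56.2% and 53.6% in untreated replicates 1, 2 and 3 of the first experiment and 67.2%, 69.5% and 65.4% with LPS. All 3 LPS libraries lay above all 3 untreated libraries. With LPS and IFNγ the share was 60.9%, 65.6% and 59.5%, also above the 3 untreated libraries of that experiment. In the second experiment it was 60.4%, 42.5% and 42.8% without treatment, 40.9%, 48.7% and 36.9% with bryostatin, 35.5%, 47.7% and 46.4% with IL-4 and 36.0%, 42.1% and 39.9% with IL-4 and bryostatin, and most of these groups overlapped. The basement membrane share was 37.0%, 27.6% and 29.6% in the untreated libraries of the first experiment and 21.6%, 19.5% and 23.1% with LPS, which was below every untreated value. These shares are descriptions without a test.

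**Figure D1:**
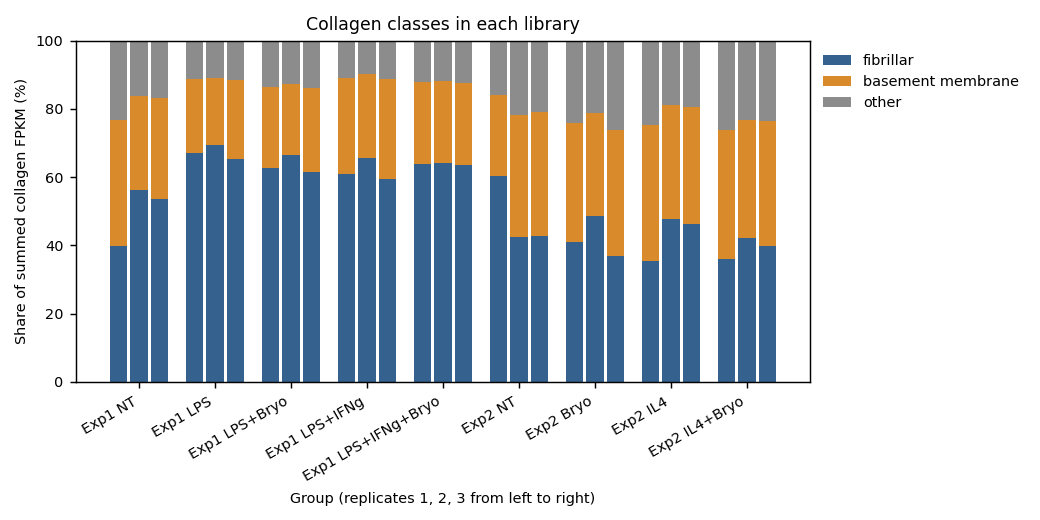
Each bar is a library and shows the percentage of its summed collagen FPKM held by fibrillar, basement membrane and other collagen genes, in groups of 3 replicates. The fibrillar share reached 65.4% to 69.5% with LPS, while the untreated libraries labelled replicate 1 stood at 39.7% in the first experiment and 60.4% in the second, away from the others of their groups.

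LPS moved the collagens in both directions by class. Type I, III and V fibrillar chains rose, the minor type IV chains Col4a3 and Col4a4 and the multiplexin Col15a1 fell, and the abundant Col4a1 and Col4a2 were not called. Of the 36 collagens tested (those with enough counts), 10 were called higher and 10 lower at an adjusted p under 0.05 (edgeR quasi-likelihood test, Benjamini-Hochberg over all 16073 genes tested). The background was 38.4% of genes called, with 19.5% higher and 18.8% lower. Among the classes, of 10 fibrillar genes 6 rose and 1 fell, of 8 basement membrane genes 1 rose and 3 fell, and of 18 other genes 3 rose and 6 fell. The median log2 fold change was 0.50 for fibrillar genes, -0.16 for basement membrane genes and -0.55 for other genes, against -0.01 over all genes tested. Without both untreated libraries labelled replicate 1, 11 rose and 12 fell of 38 tested. Calls were then gained by Col8a2 (log2 fold change -1.10, adjusted p = 1.8e-06), Col9a2 (-1.09, adjusted p = 0.00055), Col4a5 (0.35), Col11a2 (-0.27) and Col24a1 (3.36, adjusted p = 0.026), the last not tested in the reported fit. Col24a1 was at 0.0 and 0.0477 CPM in untreated replicates 2 and 3 and at 0.22, 0.237 and 0.492 CPM with LPS. Its fold change thus rests on untreated values below the level of 3 counts.

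Among the fibrillar chains, Col3a1 was at 291, 901 and 755 CPM in the untreated libraries and at 1759.6, 1850.4 and 1603 CPM with LPS. It rose 2.68-fold (log2 fold change 1.42 ± 0.32, adjusted p = 0.0032), with no overlap of the groups. Its log2 fold change was 1.07 without the untreated replicate 1. Col1a1 went from 439, 1063 and 931 CPM to 1528, 1663 and 1369 CPM, and every LPS library was above every untreated library (log2 fold change 0.91 ± 0.28, adjusted p = 0.022). That call was lost without LPS replicate 1 (adjusted p = 0.052) or LPS replicate 2 (adjusted p = 0.068), and its log2 fold change was 0.61 without untreated replicate 1. Col1a2 went from 622, 1239.6 and 1123 CPM to 2144, 2357 and 1934 CPM, again without overlap (log2 fold change 1.11 ± 0.25, adjusted p = 0.0032). The type V chains, which set the diameter of type I fibrils, rose as well. Col5a3 rose from 16.9 ± 0.707 to 31.1 ± 2.96 CPM (mean ± SD, n = 3; log2 fold change 0.88 ± 0.11), Col5a1 by 0.57 ± 0.15 and Col5a2 by 0.44 ± 0.14 on the log2 scale. The Col5a2 call was lost without LPS replicate 1 (adjusted p = 0.063), untreated replicate 2 (adjusted p = 0.079) or untreated replicate 3 (adjusted p = 0.08). Col11a1, a cartilage-type fibrillar chain, was the fibrillar gene that fell, from 143, 169.5 and 194 CPM to 118, 116 and 118 CPM (log2 fold change -0.53 ± 0.12, adjusted p = 0.003). Col2a1, Col11a2 and Col27a1 were not called. Col11a2 turned direction without untreated replicate 1, from 0.18 ± 0.40 to -0.27, and was then called lower.

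The type IV chains separated by partner. Col4a3 was at 23.1, 5.78 and 8.92 CPM without treatment and at 1.32, 1.14 and 1.15 CPM with LPS, so every LPS library was below every untreated library. The fall was 10.4-fold (log2 fold change -3.38 ± 0.45, adjusted p = 2.2e-05), and the log2 fold change was -2.61 without untreated replicate 1. Col4a4, its head-to-head neighbour and partner, was at 31.6, 14.8 and 18 CPM and then 5.4, 4.84 and 5.57 CPM (log2 fold change -2.03 ± 0.24, adjusted p = 4.2e-06). Both drew on an untreated replicate 1 that was higher than replicates 2 and 3. Col4a5, the chain that joins them, was not called (log2 fold change 0.28 ± 0.13, adjusted p = 0.1), nor was Col4a6 (log2 fold change -0.10 ± 0.13, adjusted p = 0.59), whose value was 0.06 without untreated replicate 1. Col4a1 went from 672, 704 and 699.6 CPM to 653, 614 and 636 CPM (log2 fold change -0.12 ± 0.10, adjusted p = 0.33) and Col4a2 from 294, 337 and 339.8 CPM to 288, 266 and 284 CPM (log2 fold change -0.21 ± 0.14, adjusted p = 0.26). The LPS values of both lay below the untreated ones, but neither difference passed the threshold. The multiplexins, which sit at the border of basement membranes, went opposite ways. Col15a1 was at 5.15, 5.04 and 5.06 CPM and fell to 0.606, 0.95 and 0.765 CPM (log2 fold change -2.70 ± 0.25, adjusted p = 3e-07), and Col18a1 was at 115, 108 and 97 CPM and rose to 199.5, 190.2 and 188 CPM (log2 fold change 0.86 ± 0.09, adjusted p = 6.5e-07).

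Of the other collagens, the transmembrane chain Col23a1 had the greatest rise of any member. It was at 4.29, 6.77 and 7.11 CPM without treatment and at 40.6, 36.7 and 43.1 CPM with LPS, a 6.59-fold rise (log2 fold change 2.72 ± 0.14, adjusted p = 2e-10). Col22a1, a fibril-associated chain known from muscle-tendon junctions, went from 3.92, 2.67 and 5.25 CPM to 8.92, 8.88 and 6.88 CPM (log2 fold change 1.06 ± 0.19, adjusted p = 0.00038). Col17a1, a hemidesmosome chain, was called higher (log2 fold change 1.57 ± 0.56, adjusted p = 0.035) at 0.107, 0.198 and 0.429 CPM and then 0.881, 0.522 and 0.874 CPM, which lies close to the level of 3 counts. Its call was lost without untreated replicate 1 (adjusted p = 0.096), untreated replicate 2 (adjusted p = 0.1), LPS replicate 1 (adjusted p = 0.099) or LPS replicate 3 (adjusted p = 0.098). Those that fell were Col6a5 (-1.69 ± 0.42 on the log2 scale), Col26a1 (-1.60 ± 0.48), the type VI chain Col6a3 (-1.46 ± 0.27), the fibril-associated Col9a1 (-1.35 ± 0.27) and Col12a1 (-0.68 ± 0.20), and the anchoring fibril chain Col7a1 (-0.81 ± 0.17). The Col26a1 groups overlapped, with untreated replicate 1 at 0.805 CPM, and its call was lost without LPS replicate 2 (adjusted p = 0.067), untreated replicate 2 (adjusted p = 0.072) or untreated replicate 3 (adjusted p = 0.063). The Col12a1 difference missed the threshold without untreated replicate 1 (log2 fold change -0.51, adjusted p = 0.058). Col6a1 and Col6a2, which form type VI filaments with Col6a3, were not called (log2 fold changes 0.32 ± 0.21 and 0.05 ± 0.28), and Col8a1, at 287, 304 and 285 CPM with LPS, was not called either (log2 fold change -0.49 ± 0.27, adjusted p = 0.17). Without untreated replicate 1 the log2 fold change of Col8a1 was 0.04 and that of Col6a2 -0.27, and without untreated replicate 2 Col8a1 was called lower (-0.71, adjusted p = 0.036).

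**Figure D2:**
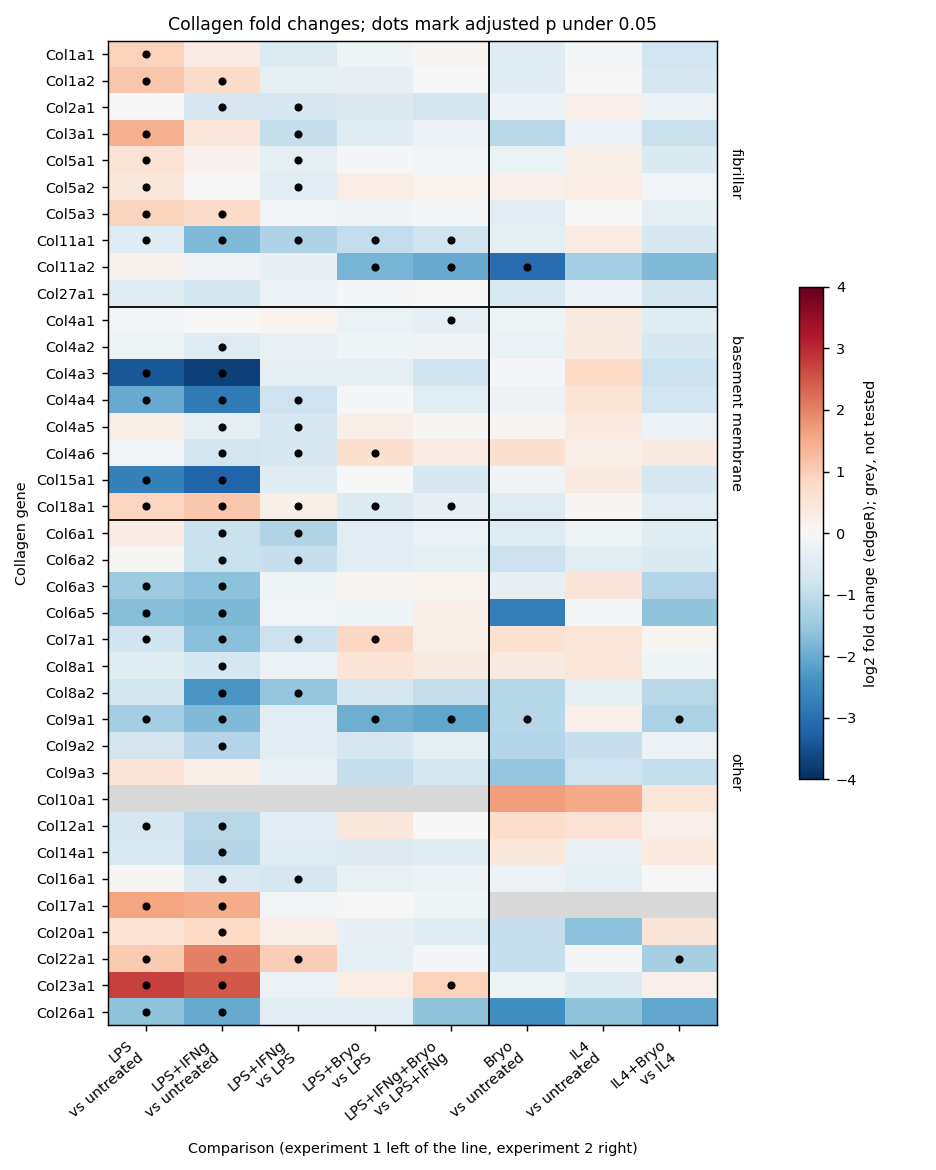
Rows are the 37 collagens tested in either experiment, grouped by class, and columns are the 8 group comparisons. Colour is the log2 fold change from edgeR, dots mark an adjusted p under 0.05, and grey marks members not tested. Type I, III and V chains are red with LPS, Col4a3, Col4a4 and Col15a1 are deep blue in both LPS columns, and Col9a1 carries a dot in all 4 bryostatin columns.

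Markers moved in the same comparison. The summed level of 14 meningeal fibroblast genes was 369 to 387 CPM without treatment and 422 to 522 CPM with LPS, with 6 called higher and 1 lower of 10 tested. That list shares Dcn and Lum with the list of fibril partners below. The summed level of 10 mural genes went from 1369 to 1676 CPM down to 365 to 409 CPM (0 higher and 5 lower of 8 tested). The contractile gene Acta2 made up much of that sum, at 1355, 1129 and 1100.0 CPM and then 225, 228 and 191 CPM. The summed level of 10 microglial genes was 446 to 488 CPM with LPS against 1081 to 1292 CPM, with 8 called lower and 2 higher (Aif1 and Itgam). That of 10 astrocyte genes was 8906 to 9443 CPM against 11825 to 14855 CPM, with 5 lower and 2 higher. Gfap made up much of the astrocyte sum, at 7933, 9886 and 9234 CPM and then 5204, 4677 and 4820.0 CPM, and Slc1a2 rose (log2 fold change 0.93 ± 0.19, adjusted p = 0.0015). Over all genes 19.5% were called higher and 18.8% lower with LPS. The part of the marker shifts in the collagen differences with LPS was not tested.

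Adding IFNγ to LPS left fewer collagens raised and more lowered against untreated cultures. With LPS and IFNγ, 7 of 36 collagens rose and 21 fell, while 58.1% of all 16073 genes tested were called, 29.5% higher and 28.6% lower. Of fibrillar genes 2 rose and 2 fell, of basement membrane genes 1 rose and 6 fell, and of other genes 4 rose and 13 fell. The median log2 fold change was -0.68 over the 36 collagens (0.10 fibrillar, -0.63 basement membrane, -1.0 other) against -0.01 over all genes. Without both untreated libraries labelled replicate 1, 6 rose and 22 fell of 38 tested. Calls were then gained by Col11a2 (log2 fold change -0.59, adjusted p = 0.00015), Col27a1 (-0.86, adjusted p = 0.031), Col24a1 (4.54, adjusted p = 0.00089) and Col28a1 (2.23, adjusted p = 0.017), the last pair not tested in the reported fit. Col24a1 was at 0.0 and 0.0477 CPM in untreated replicates 2 and 3 and at 0.646, 0.999 and 0.51 CPM with LPS and IFNγ. Col28a1 was at 0.0988 and 0.143 CPM and then 0.646, 0.499 and 0.637 CPM. Both fold changes thus rest on untreated values near or below the level of 3 counts. This comparison and that of LPS share their untreated libraries.

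The fibrillar chains of types I and III were in part no longer apart from untreated cultures. Col1a1 was at 830.3, 1404 and 849 CPM with LPS and IFNγ and Col3a1 at 668, 1243 and 794 CPM, and neither was called against untreated (log2 fold change 0.34 ± 0.28, adjusted p = 0.32 for Col1a1 and log2 fold change 0.47 ± 0.32, adjusted p = 0.22 for Col3a1). Col1a2 was at 1300.3, 2263 and 1414 CPM and was called higher (log2 fold change 0.74 ± 0.25, adjusted p = 0.022), a call lost without untreated replicate 1 (log2 fold change 0.49, adjusted p = 0.074) or replicate 2 of the LPS and IFNγ group (0.44, adjusted p = 0.14). Col5a3 rose (log2 fold change 0.78 ± 0.12, adjusted p = 2.5e-05) and Col11a1 fell to 40.5, 60.1 and 48.8 CPM (log2 fold change -1.76 ± 0.13, adjusted p = 7.4e-09). Col5a2 was not called (log2 fold change 0.03 ± 0.14, adjusted p = 0.88).

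In basement membrane genes the falls reached further than the minor chains. Col4a3 was at 0.646, 0.999 and 1.15 CPM (log2 fold change -3.75 ± 0.47, adjusted p = 6.7e-06, and -2.97 without untreated replicate 1), Col4a4 at 3.1, 3.5 and 2.36 CPM (log2 fold change -2.84 ± 0.25, adjusted p = 9e-08) and Col15a1 at 0.581, 0.562 and 0.51 CPM (log2 fold change -3.19 ± 0.27, adjusted p = 4.6e-08). The chains of the other type IV networks were lowered by less. Col4a6, Col4a2 and Col4a5 fell, with log2 fold changes of -0.74 ± 0.13, -0.52 ± 0.14 and -0.40 ± 0.13, the Col4a2 libraries standing at 178, 282 and 214 CPM. Col4a1 was not called, at 608, 808 and 691 CPM (log2 fold change 0.02 ± 0.10, adjusted p = 0.86). Col18a1 was again the member of the class that rose, to 211, 258 and 211 CPM (log2 fold change 1.09 ± 0.09, adjusted p = 1.8e-08).

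Of the other collagens, Col23a1 stood at 32.2, 34.3 and 35.6 CPM (log2 fold change 2.48 ± 0.14, adjusted p = 3.7e-10) and Col22a1 at 16, 16.7 and 15.8 CPM (log2 fold change 2.03 ± 0.19, adjusted p = 1.7e-07), and neither group overlapped the untreated libraries. Col17a1 and Col20a1 were called higher (1.47 ± 0.57 and 0.81 ± 0.30) at levels of at most 2.87 CPM. The Col17a1 call was lost without untreated replicate 1 (adjusted p = 0.11), untreated replicate 2 (adjusted p = 0.11) or replicate 1 of the treated group (adjusted p = 0.2), and the Col20a1 call without untreated replicate 1 (adjusted p = 0.089) or treated replicates 1 (adjusted p = 0.073) or 2 (adjusted p = 0.1). Col8a2, a short-chain network collagen known from the corneal endothelium, fell from 16.2, 47.3 and 47.5 CPM to 6.71, 7.62 and 7.78 CPM (log2 fold change -2.33 ± 0.32, adjusted p = 2.3e-05). Col7a1, Col6a3, Col9a1, Col26a1 and Col6a5 fell, with log2 fold changes of -1.68 ± 0.18, -1.64 ± 0.27, -1.78 ± 0.28, -2.02 ± 0.50 and -1.79 ± 0.44. The Col8a1 call (log2 fold change -0.71 ± 0.27, adjusted p = 0.036) was lost without untreated replicate 1 (log2 fold change -0.18, adjusted p = 0.27) and without replicates 1 (-0.56, adjusted p = 0.15) or 3 (-0.72, adjusted p = 0.075) of the treated group.

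Set directly against LPS alone, IFNγ lowered 13 of the 36 collagens and raised 2, against a background of 36% of genes called, 19.2% higher and 16.8% lower. Among fibrillar genes 5 fell, of basement membrane genes 3 fell and 1 rose, and of other genes 5 fell and 1 rose. The class medians were -0.40, -0.42 and -0.42 on the log2 scale against -0.01 over all genes. Col8a2 fell from 25.1, 23.9 and 17.4 CPM to 6.71, 7.62 and 7.78 CPM (log2 fold change -1.59 ± 0.32, adjusted p = 0.0014) and Col11a1 from 118, 116 and 118 CPM to 40.5, 60.1 and 48.8 CPM (log2 fold change -1.24 ± 0.13, adjusted p = 1.5e-06). Col6a1 and Col6a2, the type VI partners that lie on the same strand of chromosome 10, fell together. Col6a1 went from 133, 138 and 126 CPM to 50.7, 66 and 55.1 CPM (log2 fold change -1.21 ± 0.22, adjusted p = 0.00056) and Col6a2 from 59.1, 54.3 and 48.1 CPM to 27.7, 36.1 and 20.7 CPM (log2 fold change -0.93 ± 0.29, adjusted p = 0.023). Col6a3, their partner in type VI filaments, was not called (log2 fold change -0.18 ± 0.28, adjusted p = 0.66). Col4a5 and Col4a6, also partners, and Col7a1 fell, with log2 fold changes of -0.68 ± 0.13, -0.65 ± 0.13 and -0.87 ± 0.19.

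Col3a1 was lower with IFNγ than with LPS alone, without overlap (log2 fold change -0.95 ± 0.32, adjusted p = 0.033), and Col5a2 fell as well (log2 fold change -0.42 ± 0.14). The Col3a1 call was lost without any of LPS replicates 1, 2 and 3 (adjusted p = 0.073, 0.082 and 0.055) and without replicates 1 (adjusted p = 0.14) or 3 (adjusted p = 0.11) of the LPS and IFNγ group. The Col6a2 call was lost without LPS replicates 1 (adjusted p = 0.068) or 2 (adjusted p = 0.052), or replicates 1 (adjusted p = 0.076) or 3 (adjusted p = 0.098) of the other group, and the Col5a2 call without LPS replicate 1 (adjusted p = 0.08) or replicates 1 (adjusted p = 0.11) or 3 (adjusted p = 0.093) of the other group. Col1a1, Col1a2, Col4a1 and Col8a1 were not called, with log2 fold changes of -0.56 ± 0.28, -0.37 ± 0.25, 0.15 ± 0.10 and -0.22 ± 0.27. Without replicate 2 of the LPS and IFNγ group, which was the highest of its group for Col1a1, Col1a2 and Col3a1, Col1a1 was called lower (log2 fold change -0.86, adjusted p = 0.044). Col22a1 rose further (log2 fold change 0.97 ± 0.18, adjusted p = 0.00054) and Col18a1 rose slightly (log2 fold change 0.24 ± 0.08, adjusted p = 0.039). The Col18a1 call was lost without LPS replicates 1, 2 or 3 (adjusted p = 0.062, 0.11 and 0.12) or replicate 2 of the other group (log2 fold change 0.13, adjusted p = 0.23). Without LPS replicate 1 or without replicate 3 of the LPS and IFNγ group, 8 collagens were called in this comparison in place of 15, and 9 were called with all 27 libraries in 1 fit.

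**Figure D3:**
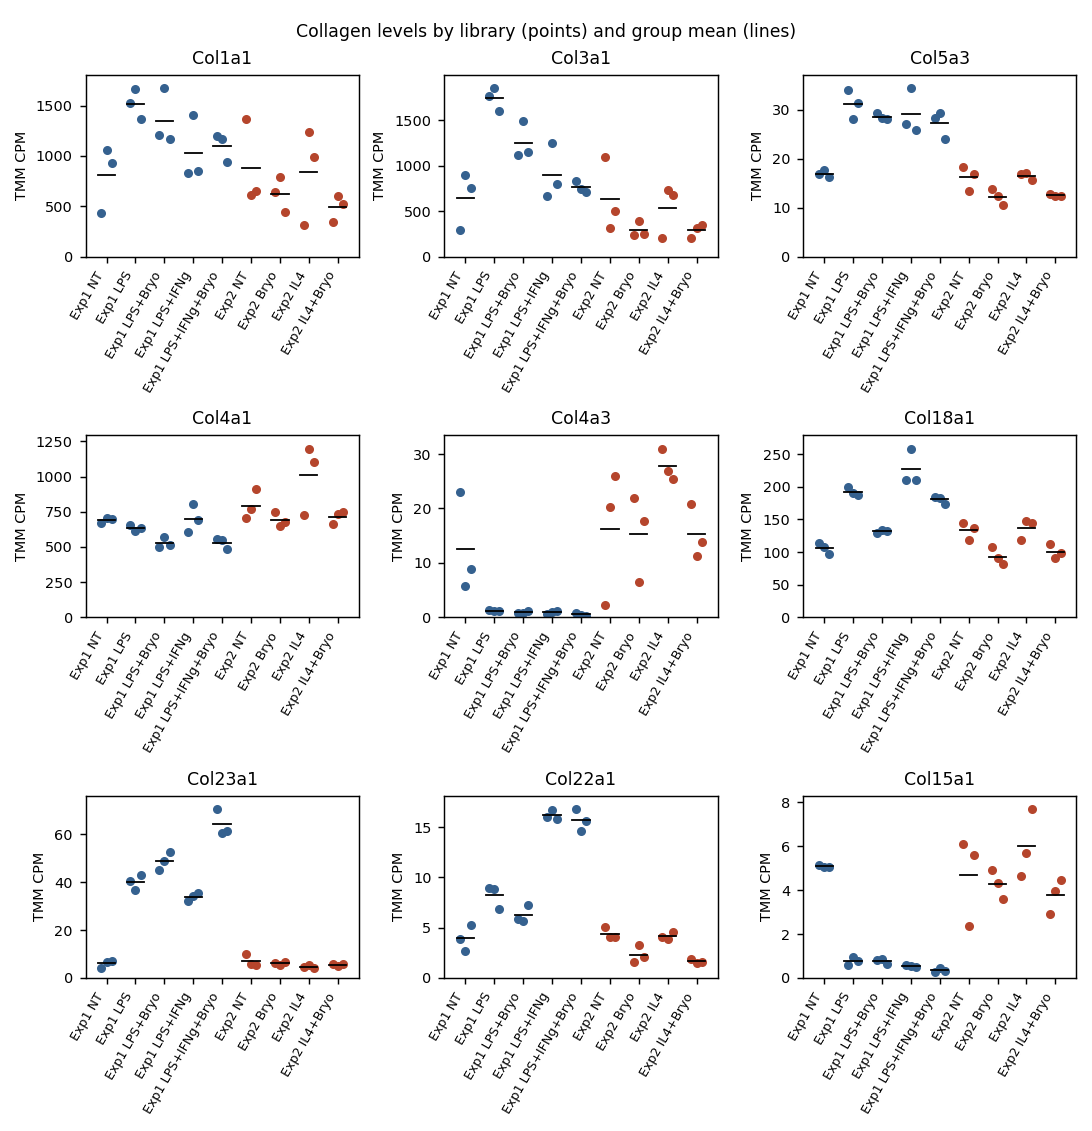
TMM CPM of 9 collagens (linear axes from 0) in the 27 libraries. Points are libraries, blue for the first and red for the second experiment, and black lines are group means. Col23a1 stands at 36.7 to 43.1 CPM with LPS against 4.29 to 7.11 CPM untreated, and Col4a3 at no more than 1.32 CPM in the LPS groups without bryostatin.

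Against untreated cultures, LPS and IFNγ came with 4 meningeal fibroblast genes called higher and 3 lower of 10, 0 and 6 of 8 mural, 1 and 7 of 10 astrocyte, 1 and 8 of 10 microglial, 0 and 4 of 9 oligodendrocyte precursor, 0 and 5 of 6 oligodendrocyte, 6 and 0 of 8 neuron and 2 and 3 of 7 endothelial genes. In the comparison of LPS and IFNγ with LPS, the meningeal fibroblast genes summed to 273 to 355 CPM against 422 to 522 CPM. Of 10 tested, 1 was higher and 5 lower. The mural genes summed to 438.5 to 496 CPM against 365 to 409 CPM, with 1 higher and 2 lower of 8 tested. Acta2 made up much of the mural sum, at 356, 313 and 287.5 CPM against 225, 227.5 and 191 CPM. Astrocyte genes summed to 6783 to 7305 CPM against 8906 to 9443 CPM (0 higher and 6 lower of 10), microglial genes to 272.5 to 292.5 CPM against 446 to 488 CPM (0 and 7 of 10) and oligodendrocyte precursor genes to 260.3 to 269 CPM against 564 to 601 CPM (0 and 4 of 9). Over all genes 29.5% were called higher and 28.6% lower against untreated cultures, and 19.2% higher and 16.8% lower against LPS. The meningeal fibroblast and endothelial counts against untreated cultures lay near these shares. The part of the marker shifts in the collagen differences was not tested.

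Bryostatin was compared with its own control in 4 settings, and Col9a1 fell in 4 of them, Col11a2 in 3 and Col11a1 and Col18a1 in 2. Added to LPS, it raised 2 and lowered 4 of 36 collagens, with 6.89% of all genes called, 3.35% higher and 3.55% lower. Added to LPS and IFNγ, it raised 1 and lowered 5, with 3.38% of all genes called, 1.8% higher and 1.58% lower. Alone, it lowered 2 and raised none, with 3.62% of all 15604 genes tested in the second experiment called, 2.11% higher and 1.51% lower. Added to IL-4, it lowered 2 and raised none, with 4.13% called, 2.7% higher and 1.42% lower. When only the compared groups were fitted, bryostatin gave 20 called with LPS (7 higher and 13 lower), 6 with LPS and IFNγ, 0 alone and 12 with IL-4. With all 27 libraries in 1 fit it gave 6, 3, 8 and 8 in the same order. Shares over all genes in these refits are not given, and the shares above belong to the reported fit. By DESeq2, also without a share over all genes, the last 2 comparisons gave 5 lower collagens each. At an unadjusted p under 0.05 edgeR gave 14 and 13 collagens for these 2, beside 2947 and 2578 of all 15604 genes tested.

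Col9a1, a chain of the collagen that coats type II fibrils, was the member called in all 4 settings. It went from 2.15, 1.57 and 2.08 CPM with LPS to 0.484, 0.31 and 0.702 CPM with bryostatin added (log2 fold change -1.94 ± 0.32, adjusted p = 0.0015) and from 1.48, 1.19 and 1.59 CPM with LPS and IFNγ to 0.31, 0.466 and 0.2 CPM (log2 fold change -2.08 ± 0.37, adjusted p = 0.0045). In the second experiment it went from 4.38, 5.23 and 6.15 CPM untreated to 2.88, 2.11 and 2.17 CPM (log2 fold change -1.13 ± 0.24, adjusted p = 0.027) and from 8.01, 5.23 and 4.71 CPM with IL-4 to 2.48, 2.42 and 2.51 CPM (log2 fold change -1.28 ± 0.24, adjusted p = 0.013). The groups did not overlap in any setting. In the LPS settings the bryostatin libraries were low, from 0.2 to 0.702 CPM, and the lowest lie close to the level of 3 counts. The calls of the second experiment were close to the threshold. Against untreated, that call was lost without any of bryostatin replicates 1, 2 and 3 (adjusted p = 0.055, 0.066 and 0.098) or untreated replicates 2 or 3 (adjusted p = 0.053 each). With IL-4 it was lost without IL-4 replicate 1 (adjusted p = 0.061) or any of the replicates 1, 2 and 3 with bryostatin (adjusted p = 0.056, 0.068 and 0.066). The other type IX chains were lower in all 4 settings by the fitted values without being called. The log2 fold changes of Col9a2 were -0.70 ± 0.36, -0.38 ± 0.39, -1.16 ± 0.53 and -0.24 ± 0.54, and those of Col9a3 were -0.96 ± 0.30, -0.71 ± 0.31, -1.54 ± 0.59 and -1.0 ± 0.59. Of the Col9a3 exon bases 6.07% overlap the opposite-strand gene Tcfl5, whose reads cannot be told apart without strand information.

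Col11a2 went from 35.2, 29.9 and 35.6 CPM with LPS to 9.95, 8.99 and 8.86 CPM (log2 fold change -1.85 ± 0.43, adjusted p = 0.02) and from 28, 26.1 and 26.7 CPM with LPS and IFNγ to 5.57, 7.64 and 6.66 CPM (log2 fold change -2.02 ± 0.45, adjusted p = 0.028). Replicates lay close together within these 4 groups, yet the first call was lost on leaving out LPS replicates 1 (adjusted p = 0.064) or 3 (adjusted p = 0.062) or any replicate of the bryostatin group (adjusted p = 0.073, 0.083 and 0.08). The second was lost on leaving out any of the 3 LPS and IFNγ libraries (adjusted p = 0.083, 0.073 and 0.076) or of the 3 with bryostatin (adjusted p = 0.11, 0.082 and 0.094). With bryostatin alone Col11a2 was at 2.07, 3.03 and 2.34 CPM against 46.5, 8.05 and 6.84 CPM (log2 fold change -3.04 ± 0.63, adjusted p = 0.026). The untreated replicate 1 set much of that size, and the log2 fold change was -1.60 without it (adjusted p = 0.0012). That call was lost without bryostatin replicates 1, 2 or 3 (adjusted p = 0.11, 0.053 and 0.095). With IL-4 the groups did not overlap, at 8.54, 7.56 and 8.09 CPM and 2.3, 2.14 and 2.61 CPM with bryostatin, but the difference was not called (log2 fold change -1.78 ± 0.62, adjusted p = 0.16). Col11a1 fell with bryostatin in both LPS settings, to 54.8, 64.9 and 56.9 CPM (log2 fold change -0.99 ± 0.13, adjusted p = 0.00014) and 28.7, 29.7 and 26.8 CPM (log2 fold change -0.81 ± 0.13, adjusted p = 0.0024). It was not called in the second experiment, where the log2 fold changes were -0.37 ± 0.21 alone and -0.64 ± 0.21 with IL-4.

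Col18a1 fell in both LPS settings, to 129, 134 and 133 CPM (log2 fold change -0.54 ± 0.08, adjusted p = 0.00088) and to 184, 183 and 174 CPM (log2 fold change -0.33 ± 0.08, adjusted p = 0.044), and stood at 144, 119 and 138 CPM untreated, 107, 90.7 and 81.2 CPM with bryostatin, 118, 148 and 145 CPM with IL-4 and 112, 90.7 and 98.7 CPM with both. Its groups did not overlap in any of the 4 settings, while the adjusted p was 0.06 and 0.1 in the second experiment. The call with LPS and IFNγ was lost without any of the 3 bryostatin libraries (adjusted p = 0.095, 0.12 and 0.14) or replicates 2 (adjusted p = 0.2) or 3 (adjusted p = 0.063) of the control. Col4a1 fell with bryostatin in the LPS and IFNγ setting, to 559, 549 and 484 CPM (log2 fold change -0.40 ± 0.10, adjusted p = 0.029). That call was lost without any of the 3 bryostatin libraries (adjusted p = 0.058, 0.078 and 0.12) or replicates 2 (adjusted p = 0.14) or 3 (adjusted p = 0.08) of the control. Col4a1 was at 502, 569 and 511 CPM with LPS and bryostatin (log2 fold change -0.27 ± 0.10, adjusted p = 0.12). Its partner Col4a2 was not called in either setting, at 230.2, 278 and 232 CPM and 225, 214 and 174 CPM. Bryostatin raised Col4a6 from 189.8, 157 and 196 CPM to 273, 279 and 290.5 CPM with LPS (log2 fold change 0.63 ± 0.13, adjusted p = 0.0058) and Col7a1 from 13.2, 9.69 and 13.1 CPM to 18.3, 23.1 and 22 CPM (log2 fold change 0.82 ± 0.17, adjusted p = 0.0088). The Col7a1 call was lost without LPS replicate 2 (log2 fold change 0.68, adjusted p = 0.059). Col23a1 rose with bryostatin in the LPS and IFNγ setting, from 32.2, 34.3 and 35.6 CPM to 70.6, 60.6 and 61.3 CPM (log2 fold change 0.92 ± 0.13, adjusted p = 0.00057), and was at 45.2, 49 and 52.8 CPM with LPS and bryostatin, where it was not called (log2 fold change 0.29 ± 0.12, adjusted p = 0.21).

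The most abundant collagens were not called with bryostatin, apart from that Col4a1 difference. Col1a1 was at 1205, 1673 and 1164 CPM with LPS and bryostatin and 1196, 1164 and 943 CPM with LPS, IFNγ and bryostatin, with log2 fold changes of -0.17 ± 0.28 and 0.10 ± 0.28. Col1a2 was at 1509, 2173 and 1476 CPM and 1773, 1596 and 1511 CPM (-0.32 ± 0.25 and -0.03 ± 0.25). Col3a1 was at 1114, 1488 and 1147 CPM and 828, 744 and 712 CPM (-0.48 ± 0.32 and -0.24 ± 0.32). Col5a2 and Col8a1 had log2 fold changes of 0.29 ± 0.14 and 0.56 ± 0.27 with LPS and 0.14 ± 0.14 and 0.36 ± 0.27 with LPS and IFNγ. With bryostatin alone Col1a1 was at 644, 791 and 445 CPM against 1368, 617 and 655 CPM untreated, and Col3a1 at 239, 392 and 251 CPM against 1090.5, 319 and 500.2 CPM. The groups overlapped for both (-0.49 ± 0.46 and -1.11 ± 0.49 on the log2 scale). Col6a1 was at 94.8, 109 and 87.2 CPM with LPS and bryostatin and 50.1, 47.9 and 43.8 CPM with LPS, IFNγ and bryostatin, and was not called. Col22a1 fell when bryostatin was added to IL-4, from 4.1, 3.83 and 4.59 CPM to 1.91, 1.46 and 1.55 CPM (log2 fold change -1.33 ± 0.25, adjusted p = 0.015). That call was lost without IL-4 replicates 1, 2 or 3 (adjusted p = 0.061, 0.052 and 0.055) or replicates 2 (adjusted p = 0.069) or 3 (adjusted p = 0.081) with bryostatin. Without the IL-4 library that stood apart, 4 collagens were called in place of 2 in this comparison, Col4a1 (log2 fold change -0.69, adjusted p = 0.034) and Col4a2 (-0.88, adjusted p = 0.012) among them.

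**Figure D4:**
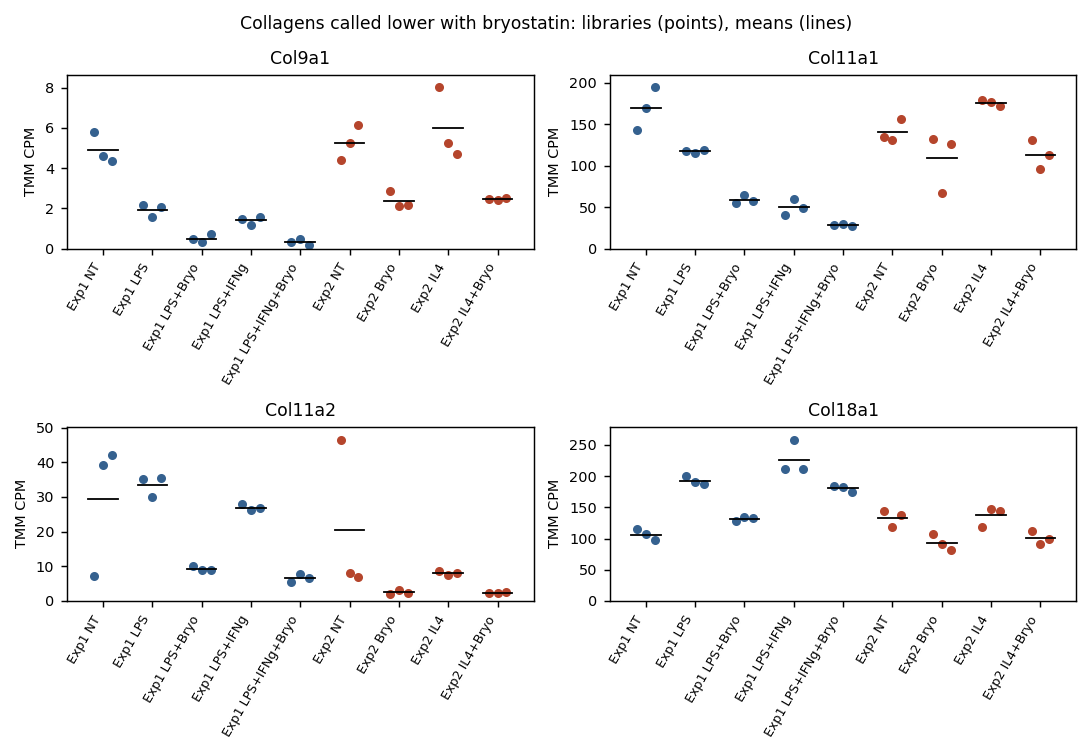
TMM CPM (linear axes from 0) of Col9a1, Col11a1, Col11a2 and Col18a1 in the 27 libraries, each called lower with bryostatin in at least 1 experiment. Points are libraries, blue for the first and red for the second experiment, and black lines are group means. Col9a1 lies at 0.31 to 0.702 CPM with LPS and bryostatin against 1.57 to 2.15 CPM with LPS, and 1 untreated Col11a2 library in each experiment lies away from the others.

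No collagen was called for a difference of bryostatin effects between settings of the same experiment. Settings of different experiments were not set against each other. The difference between its effects with LPS and IFNγ and with LPS was called for 0 of 36 collagens and 0.118% of all genes (19 of 16073). The corresponding difference between IL-4 and no cytokine was called for 0 of 36 collagens and 0% of all genes. At an unadjusted p under 0.05, edgeR gave 1 and 0 collagens, beside 1021 of 16073 and 327 of 15604 genes, and DESeq2 called 0 collagens in both. The 1 was Col23a1 (difference log2 fold change 0.63 ± 0.18, adjusted p = 0.35), which was called when no filter on low counts was used (adjusted p = 0.047). For Col11a2 the difference in the second experiment was 1.27 ± 0.87 (-0.18 without both untreated libraries labelled replicate 1), and for Col9a1 it was -0.15 ± 0.49 in the first and -0.14 ± 0.33 in the second. A p that misses the threshold does not show that the effects were alike.

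Beside the bryostatin differences, the summed level of the astrocyte genes was lower in every bryostatin library than in every library of its control, while members differed: 1 was called higher and 5 lower of 10 with LPS, 0 and 4 with LPS and IFNγ, 1 and 6 alone and 1 and 5 with IL-4. The member called higher in 3 settings was Aldh1l1, for example at 377, 345 and 361 CPM against 269.7, 248 and 264 CPM with LPS, and Gfap made up much of the sum. With LPS the sum was 6845 to 7164 CPM against 8906 to 9443 CPM, with LPS and IFNγ 4798 to 4818 CPM against 6783 to 7305 CPM, alone 8491 to 10564 CPM against 12731 to 17511 CPM, and with IL-4 8410 to 9527 CPM against 11734 to 12540 CPM. In the second experiment the meningeal fibroblast genes summed to 290 to 300 CPM with bryostatin against 378 to 439 CPM, and to 268 to 280 CPM against 390 to 430 CPM with IL-4, with none of 10 called. With LPS the sum was 350 to 432.5 CPM against 422 to 522 CPM (2 lower), and with LPS and IFNγ 325 to 342 CPM against 273 to 355 CPM (1 lower). The mural sum was 347 to 374 CPM against 438.5 to 496 CPM with LPS and IFNγ (1 of 8 lower) and overlapped its control with LPS (0 called). Of 8 neuron genes 3 were called higher and 0 lower in both LPS settings, with 3.35% and 1.8% of all genes higher. Over all genes 6.89% were called with LPS, 3.38% with LPS and IFNγ, 3.62% alone and 4.13% with IL-4. The part of these marker levels in the collagen differences was not tested.

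IL-4 alone moved no collagen past the threshold. Of 36 tested, 0 were called by edgeR and 0 by DESeq2, with 0.583% of all genes called by edgeR, 0.5% higher and 0.0833% lower. An unadjusted edgeR p under 0.05 was found for 4 of the 36 collagens and for 1666 of all 15604 genes tested, a similar share. Without both untreated libraries labelled replicate 1 the count of called collagens was also 0. The class medians were 0.00 for fibrillar, 0.36 for basement membrane and -0.25 for other genes on the log2 scale, against -0.03 over all genes. All 8 basement membrane genes had a positive fitted value, from 0.04 to 0.79. Col4a1 was at 727, 1199 and 1106 CPM against 702, 768 and 912 CPM untreated (log2 fold change 0.35 ± 0.17, adjusted p = 0.45) and Col4a2 at 297, 589 and 542 CPM against 351, 352 and 404 CPM (log2 fold change 0.37 ± 0.21, adjusted p = 0.45), with overlap in both. Without both untreated libraries labelled replicate 1 the fitted values of Col1a1, Col1a2, Col3a1 and Col6a1 turned from -0.06 ± 0.46, -0.02 ± 0.36, -0.24 ± 0.49 and -0.20 ± 0.36 to 0.41, 0.35, 0.39 and 0.21. For the fibrillar chains the IL-4 libraries were spread widely. Col3a1 was at 210.1, 729 and 678 CPM and Col1a2 at 511, 1418 and 1301 CPM, against 1090.5, 319 and 500.2 CPM and 1578, 779.7 and 906 CPM untreated. The standard error of the log2 fold change of Col1a1 was larger here, at -0.06 ± 0.46, than with LPS in the first experiment, at 0.91 ± 0.28. Col5a2 and Col8a1 had values of 0.31 ± 0.16 and 0.49 ± 0.32, and Col6a1 was at 50.4, 134 and 113 CPM against 171, 80.8 and 91 CPM. With IL-4 and bryostatin, Col1a1 was at 349, 605 and 525 CPM, Col1a2 at 557, 789 and 703 CPM, Col3a1 at 206, 315 and 348 CPM, Col4a1 at 661, 734 and 747 CPM, Col4a2 at 269, 329 and 322 CPM and Col6a1 at 55.1, 83.9 and 75.8 CPM. With bryostatin alone, Col1a2, Col4a1, Col4a2 and Col6a1 were at 796, 980.3 and 586, 749, 647 and 679.9, 325, 311 and 283 and 74.7, 97.9 and 67.3 CPM.

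Of 21 genes for collagen synthesis and folding in the cell, all tested, 12 rose with LPS, 3 fell and 6 were not called, beside 19.5% higher and 18.8% lower over all genes, with a median log2 fold change of 0.34. The median over all genes was -0.01. Creb3l1, a transcription factor of the endoplasmic reticulum known to act on type I collagen genes, went from 12.6, 21.7 and 19.6 CPM to 101, 107 and 95.1 CPM (log2 fold change 2.49 ± 0.15, adjusted p = 1e-09). P4ha2, a subunit of prolyl 4-hydroxylase, rose (log2 fold change 1.56 ± 0.14, adjusted p = 1.9e-07), as did the lysyl hydroxylase Plod3 (log2 fold change 1.32 ± 0.10, adjusted p = 1.3e-08), while the galactosyltransferase Colgalt2 fell (log2 fold change -0.99 ± 0.26, adjusted p = 0.0073). The collagen chaperone Serpinh1 was at 465, 588 and 532 CPM untreated and 808, 888 and 771 CPM with LPS (log2 fold change 0.64 ± 0.10, adjusted p = 0.0001). P4hb, the shared subunit of prolyl 4-hydroxylase, was at 468, 498 and 474 CPM and 761, 755 and 752 CPM (log2 fold change 0.66 ± 0.07, adjusted p = 1.1e-06). The groups did not overlap for either. With LPS and IFNγ 10 of the 21 rose and 5 fell (29.5% and 28.6% over all genes), and Serpinh1 and P4hb stood at 788, 875 and 746 CPM and 741, 714 and 694 CPM. Against LPS alone, IFNγ raised 3 and lowered 10 (19.2% and 16.8% over all genes), among them Colgalt2 (-1.41 ± 0.29) and P4ha3 (-1.18 ± 0.09) lower and Plod3 (0.93 ± 0.09) and P4ha2 (0.69 ± 0.13) higher.

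Of these 21 genes, bryostatin raised 2 with LPS (Plod3 among them, 0.40 ± 0.09) and lowered none, with 6.89% of all genes called. With LPS and IFNγ it raised 1 and lowered 1, with 3.38% of all genes called. It lowered 1 alone and 2 with IL-4, with 3.62% and 4.13% of all genes called. P4ha3, another prolyl 4-hydroxylase subunit, was lower with bryostatin alone, at 96.7, 95.4 and 117 CPM against 153, 171 and 169 CPM (log2 fold change -0.67 ± 0.10, adjusted p = 0.0045), with IL-4 (log2 fold change -0.67 ± 0.10, adjusted p = 0.0039) and with LPS and IFNγ (log2 fold change -0.53 ± 0.09, adjusted p = 0.0045). P4hb was higher with bryostatin in the LPS and IFNγ setting, at 825, 872 and 939 CPM (log2 fold change 0.29 ± 0.07, adjusted p = 0.025), and at 894, 862 and 863 CPM with LPS (log2 fold change 0.21 ± 0.07, adjusted p = 0.086). Serpinh1 was at 718, 790.2 and 643 CPM and 796, 774 and 836 CPM in those groups. In the second experiment Serpinh1 was at 831, 592 and 546 CPM untreated, 421, 553 and 377 CPM with bryostatin, 490.4, 658 and 591 CPM with IL-4 and 369, 443 and 374 CPM with both, and P4hb at 614, 568 and 550.2, 614, 748 and 611, 488, 548 and 571 and 642, 716 and 695 CPM in the same order. Neither was called there. IL-4 changed none of the 21, with 0.583% of all genes called.

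Outside the cell, 7 of 12 tested genes for processing and cross-linking rose with LPS and 0 fell. With LPS and IFNγ 10 rose and 0 fell. Over all genes 19.5% were higher and 18.8% lower with LPS, and 29.5% and 28.6% with LPS and IFNγ. Lox, the lysyl oxidase that cross-links fibrils, went from 82.9, 156 and 163 CPM to 436, 532 and 436 CPM (log2 fold change 1.80 ± 0.30, adjusted p = 0.00032) and Bmp1, which removes the C-propeptide of procollagen, from 148, 131 and 117 CPM to 325, 314 and 337 CPM (log2 fold change 1.30 ± 0.08, adjusted p = 2.3e-09). Adamts14, which removes N-propeptides, rose by 2.74 ± 0.16 with LPS and IFNγ and Loxl3 by 2.12 ± 0.16. Of 7 collagenases and gelatinases, 5 rose and 1 fell with LPS. The collagenase Mmp13 went from 0.322, 0.247 and 0.907 CPM to 112, 133 and 122 CPM (log2 fold change 7.92 ± 0.25, adjusted p = 1e-12) and the gelatinase Mmp9 from 0.429, 0.889 and 0.907 CPM to 11.1, 8.6 and 9.72 CPM (log2 fold change 3.70 ± 0.27, adjusted p = 1.2e-08). With bryostatin added to LPS, Mmp13 was at 219.8, 254 and 259 CPM (log2 fold change 1.00 ± 0.15, adjusted p = 0.00078). With bryostatin added to IL-4 it was at 9.91, 7.09 and 12.1 CPM against 1.45, 1.81 and 2.3 CPM (log2 fold change 2.39 ± 0.34, adjusted p = 0.0035). Of 12 fibril partners 5 rose and 2 fell with LPS, the small proteoglycan Dcn going from 19, 101 and 96.1 CPM to 197, 227 and 199.8 CPM (log2 fold change 1.53 ± 0.40, adjusted p = 0.0076). Of 16 basement membrane partners 3 rose and 4 fell, close to the shares over all genes. The laminin chain Lama4 rose (log2 fold change 1.81 ± 0.20, adjusted p = 3.8e-06) and Lama2 fell (log2 fold change -1.21 ± 0.21, adjusted p = 0.00034). Of 9 tested collagen receptors 1 rose and 3 fell with LPS, and the integrin subunit Itga2 was higher with bryostatin in both LPS settings (1.27 ± 0.19 and 1.18 ± 0.18). In the second experiment few genes of these lists were called. Over all genes 0.583% were called with IL-4, 3.62% with bryostatin alone and 4.13% with bryostatin added to IL-4. IL-4 raised 1 receptor, the inhibitory collagen receptor Lair1 (log2 fold change 1.01 ± 0.16, adjusted p = 0.011). Bryostatin alone lowered 1 fibril partner, Postn (log2 fold change -1.88 ± 0.42, adjusted p = 0.036), and with IL-4 it lowered 2 processing genes, Adamts2 (-1.39 ± 0.34) and Loxl2 (-0.81 ± 0.16).

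Not every member could be tested. Col17a1 passed the filter on low counts only in the first experiment and Col10a1, the hypertrophic cartilage chain, only in the second, where it was not called (log2 fold change 1.66 ± 0.81, adjusted p = 0.3 with bryostatin and log2 fold change 1.53 ± 0.82, adjusted p = 0.45 with IL-4). Col28a1, Col24a1, Col19a1, Col6a4, Col25a1, Col13a1 and Col6a6 passed in neither, with between 6 and 109 counts summed over the 27 libraries. The exons of 13 of the 44 members overlap those of another gene, and without strand information such reads cannot be assigned with certainty. For the members named above with values this share was at most 6.07% of the exon bases, and 5.65% for Col4a3, whose overlapping gene C430014B12Rik had 171 counts in all against 5269 for Col4a3.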

How the data were processed

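RNA from 27 libraries of mixed glial cultures was sequenced, 3 per group. The authors deposited, for each library, raw read counts per gene and FPKM values. The submitters' processing notes name fastp, STAR, featureCounts and mm10. Tool versions are not given in the sources used. Libraries were polyadenylated and unstranded, per the labels' protocols. Each experiment was fitted apart on the counts with edgeR 4.0.16 (R 4.3.3, limma 3.58.1): low-count filter by group, TMM factors, robust quasi-likelihood fit and test, and Benjamini-Hochberg adjustment over all genes tested, called at an adjusted p under 0.05. Standard errors are the log2 fold change over the square root of F. DESeq2 1.42.0 was an alternative. Shares, motifs and plots were made with Python 3.11.15, pandas 2.3.3 and matplotlib 3.10.9. Levels between genes use the deposited FPKM only. The fit was also run on simulated data in which far fewer genes changed than were called with LPS, so it cannot speak for those comparisons. Per comparison, the members named are up to 6 called in each direction with the largest change and the 6 with the highest mean FPKM, and up to 4 called genes per pathway list with at least 5 CPM; further members are named to account for all of them, and some lower-ranked genes were named after their values were seen. Collagens, classes, pathway lists and marker lists were chosen with earlier results of these data known. Protein sequences were not used here. Alternatives were DESeq2, its size factors, no filter, only the compared groups, all 27 libraries together, a replicate block, and leaving out libraries.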

Additional observations from a re-analysis of the deposited data

How the results depend on the processing

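Of the counts of called collagens under the alternatives, 106 stayed within 1.5 times the reported count and 29 did not. Of the other values, fold changes and class shares, 4644 kept direction and side of the threshold (or, for shares, stayed within 1 SD), 161 lost the call, 77 gained it and 5 shares moved, all 5 basement membrane shares taken over type IV chains only. In 2 cases direction turned with a call: Col11a2 with LPS, from 0.18 on the log2 scale to -0.27 without untreated replicate 1 of the first experiment, also when both untreated libraries labelled replicate 1 were left out. Leaving out 1 library, its value ran from -0.27 to 0.53. Over all fitted values, called or not, 242 of 4853 turned sign. With all 27 libraries in 1 fit, 9 collagens were called for LPS and IFNγ against LPS (15 reported), 3 for bryostatin with LPS and IFNγ (6), 8 for bryostatin alone (2) and 8 for bryostatin with IL-4 (2). With only the compared groups fitted, bryostatin with LPS gave 20 (6), bryostatin alone 0 and bryostatin with IL-4 12. DESeq2 gave 5 for each of the last 2. Without the filter on low counts, bryostatin alone gave 1, and the difference of bryostatin effects between LPS with IFNγ and LPS gave 1 (0). Leaving out 1 library gave 8 to 17 for LPS and IFNγ against LPS, 3 to 5 for bryostatin with LPS and IFNγ, 0 to 2 for bryostatin alone and 0 to 4 for bryostatin with IL-4. The cause was not tested, and shares over all genes under these alternatives are not given. Replicate numbers did not pair the libraries: correlations of deviations between same-numbered libraries ran from -0.62 to 0.49, and all were over 0.1 in 0 of 8 comparisons. With a replicate block, bryostatin alone gave 1 call (2 without) and the other counts stayed within 1.5 times. At these depths differences in genes that stay near 3 counts in every group, 0.105 to 0.174 CPM before TMM scaling, were not detectable.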
